A study of Mus musculus with 36 samples.

Results

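Cells of mouse skeletal muscle were sorted by reporter. Those with both labels, S100β-GFP+;NG2-dsRed+, are named perisynaptic Schwann cells (PSCs), after the study. Those with a single label are named by it, as S100β-GFP+ or NG2-dsRed+ cells. The genes described here are long intergenic noncoding RNAs (lincRNAs) detected in these sorted cells. They are the genes that GENCODE M21 annotates as lincRNA on an autosome, other than H19 and Meg3, whose mean level was at least 5 CPM in at least 1 of the cell types. CPM is a gene's count divided by the sum of its library and multiplied by 1000000, and the mean was taken over the libraries of a cell type. The rule kept 133 of 4364 autosomal lincRNAs of the count table, which lists 5009 lincRNAs among 52636 genes. The lincRNAs were thus chosen by the measured levels described here, so a lincRNA at 5 CPM in 1 cell type alone had to be high there, and both its levels and its calls are given as a description. The question put to each lincRNA was which of the sorted cell types it favours.

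All groups came from juvenile mice that carry a GFP transgene under the S100b promoter and a dsRed transgene under the promoter of Cspg4, the gene of the NG2 protein. FACS separated cells of diaphragm, pectoralis and limb muscles that held both reporters, GFP alone or dsRed alone, with 1 mouse per replicate and no treatment. The reporters show promoter use and not the identity of a cell, since NG2 also marks pericytes. The table has a column for 9 libraries of PSCs, 8 of S100β-GFP+ cells and 10 of NG2-dsRed+ cells, out of 36 that are labelled, with total counts between 5334916 and 9592875 for PSCs, between 5221655 and 9411399 for S100β-GFP+ cells and between 5712256 and 7918320 for NG2-dsRed+ cells. The design text of the series names 7 S100β-GFP+ replicates while the table has 8 columns of these cells. All 8 were used, and which of them the study may have left out is not stated. A lincRNA without a count could still be present below the floor of 3 counts over a cell type, which is 0.0456 CPM for PSCs, 0.0521 CPM for S100β-GFP+ cells and 0.0440 CPM for NG2-dsRed+ cells.

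LincRNAs are transcribed by RNA polymerase II from their own promoters and are spliced and polyadenylated like messenger RNAs, but they encode no long protein. Some act as scaffolds in the nucleus, some are hosts from which small nucleolar RNAs or microRNAs are cut, and for some the act of transcription matters to a gene nearby. Many are made in few cell types, which has made them useful as markers of lineage, and most have no described function.

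Marker genes of cell types were compared first. Of 6 Schwann cell lineage genes, all 6 were higher in PSCs than in each other cell type by edgeR's quasi-likelihood test, with a summed level between 2470 and 3379 CPM in PSCs (median 2764), between 42.0 and 326.7 CPM in S100β-GFP+ cells (median 119.9) and between 23.8 and 76.6 CPM in NG2-dsRed+ cells (median 32.6). None of the 6 was at 0 in a PSC library, and 5 of them were higher in S100β-GFP+ than NG2-dsRed+ cells (18.1% of all genes tested). Of 6 genes of myelinating Schwann cells, 5 were higher in PSCs than NG2-dsRed+ cells and 1, Pmp22, was higher in PSCs than S100β-GFP+ cells, with medians of the sum at 3243, 2347 and 353.2 CPM. All 6 were higher in S100β-GFP+ than NG2-dsRed+ cells. Myelin genes were thus present in the S100β-GFP+ libraries at levels near those of PSCs, while the lineage genes Sox10 and Foxd3 were at 16.9 and 5.70 CPM there. All 5 fibroblast genes, led by Col3a1, were lower in PSCs than in both others, and their sum was between 15160 and 30730 CPM in S100β-GFP+ cells (median 22750), between 2266 and 21190 CPM in NG2-dsRed+ cells (median 8044) and between 802 and 3545 CPM in PSCs (median 1549). All 6 macrophage and leukocyte genes, led by Lyz2, were higher in S100β-GFP+ cells than in each other cell type, with a sum between 884.8 and 8801 CPM (median 5152) against medians of 153.3 CPM in PSCs and 33.0 CPM in NG2-dsRed+ cells. The S100β-GFP+ libraries are named here by their reporter, and marker sums are set beside some lincRNAs, chosen after the values were seen.

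In NG2-dsRed+ cells the pericyte and smooth muscle genes stood out. Of 8 such genes 7 were lower in PSCs than NG2-dsRed+ cells, the exception being Cspg4 itself, and all 8 were lower in S100β-GFP+ cells than in NG2-dsRed+ cells, with Rgs5 the most abundant. Their sum was between 7711 and 14380 CPM in NG2-dsRed+ cells (median 11100), between 1033 and 1575 CPM in PSCs (median 1266) and between 201.7 and 1238 CPM in S100β-GFP+ cells (median 722.7). In PSCs the most abundant of the 8 was Cspg4, whose promoter drives dsRed, with a median of 821.3 CPM against 47.2 CPM in S100β-GFP+ cells. Between PSCs and S100β-GFP+ cells 5 of the 8 were lower in PSCs, 1, Cspg4, was higher and 2 were not called. All 5 endothelial genes, led by Cdh5, were lower in PSCs than NG2-dsRed+ cells, with medians of the sum at 299.1 CPM in PSCs, 159.3 CPM in S100β-GFP+ cells and 1918 CPM in NG2-dsRed+ cells. None of 4 satellite cell genes was called in any comparison (median sum 15.0, 3.90 and 12.6 CPM in the same order), and 2 of 5 muscle fibre genes, Ttn and Myh4, were higher in PSCs than in both others (480.8, 235.3 and 343.5 CPM). All 5 erythroid genes were lower in PSCs than S100β-GFP+ cells, where S100β-GFP+ library 17 reached 100400 CPM against a median of 9053 CPM. Of 5 genes of chondrocytes and tenocytes 2, Col2a1 and Acan, were higher in PSCs than in both others and 3 were lower than in S100β-GFP+ cells. PSC library 31 had the highest sum of these genes, 4760 CPM against a PSC median of 13.2 CPM (71.4 CPM in S100β-GFP+ cells and 40.9 CPM in NG2-dsRed+ cells).

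Some libraries stand apart from the others of their cell type. PSC library 18 had counts on 14616 genes against a PSC median of 21502, and on 101 of the 133 lincRNAs against a median of 127. S100β-GFP+ library 22 had counts on 38568 genes, library 17 on 29103 and library 14 on 25890, against a median of 23251. The 3 transcripts that lie in repeated or mitochondrial-like sequence (Lars2, Gm23935 and Gm15564) held 3.64% (library 36) to 36.6% (library 23) of a PSC library, with a median of 17.8%, against medians of 32.6% in S100β-GFP+ and 30.4% in NG2-dsRed+ cells. Counts were scaled by TMM in the fits. Scaling by column sums in place of TMM moved the median log2 fold change of all genes tested by 0.50 between PSCs and S100β-GFP+ cells, by 0.28 between PSCs and NG2-dsRed+ cells and by -0.22 between S100β-GFP+ and NG2-dsRed+ cells, so differences of that size depend on the scaling.

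PSCs had the highest mean for 78 of the 133 lincRNAs, S100β-GFP+ cells for 27 and NG2-dsRed+ cells for 28. With TMM library sizes the numbers were 73, 29 and 31, as 2 lincRNAs passed from PSCs to S100β-GFP+ cells and 3 from PSCs to NG2-dsRed+ cells. Of 11247 autosomal protein-coding genes that meet the same level rule 57.9% were highest in PSCs. The level of 5 CPM was reached in 1 cell type by 79 lincRNAs (51 for PSCs, 14 for S100β-GFP+ and 14 for NG2-dsRed+ cells), in 2 cell types by 23 and in all 3 cell types by 31. The median ratio of the highest mean to the next was 2.47. Because these are bulk libraries, fewer cells that express a lincRNA and less of it per cell cannot be told apart.

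**Figure D1:**
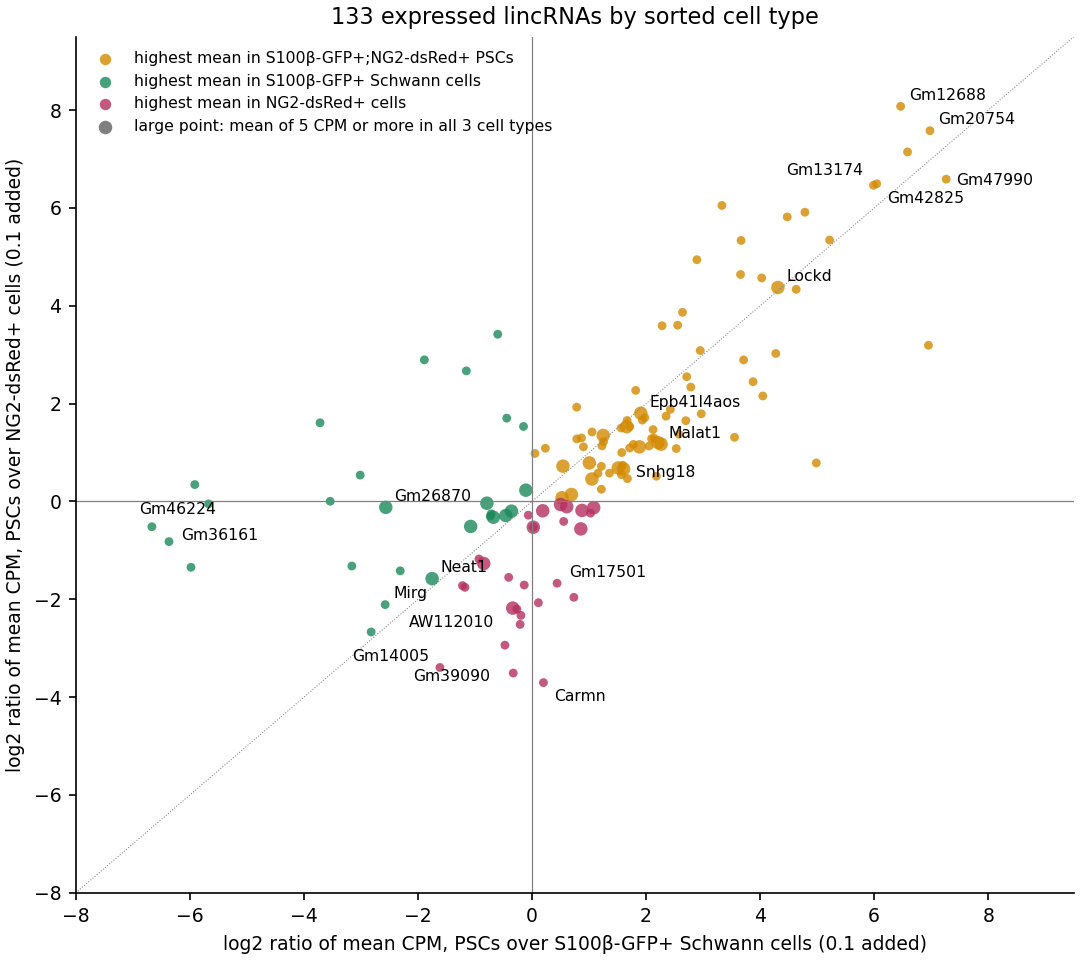
Each point is 1 of the 133 lincRNAs, placed by the log2 ratio of its mean CPM in PSCs to that in S100β-GFP+ cells (horizontal) and in NG2-dsRed+ cells (vertical), with 0.1 CPM added to each mean. Colour gives the cell type with the highest mean (78, 27 and 28 lincRNAs) and large points mark the 31 lincRNAs at 5 CPM or more in all 3 cell types, which gather nearer to the origin than the labelled points at the corners.

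The filter on low counts kept 129 of the 133 lincRNAs, and Gm33979 (highest in PSCs), A630001O12Rik, Gm30978 and Gm48065 (highest in S100β-GFP+ cells) were not tested. By the quasi-likelihood test with Benjamini-Hochberg adjustment over 15330 genes, 43 lincRNAs were higher in PSCs than in each of the others, beside 13.9% of all genes tested. In S100β-GFP+ cells 11 lincRNAs were higher than in both others, beside 11.8% of all genes, and in NG2-dsRed+ cells 15, beside 8.44% of all genes. The remaining 60 lincRNAs were not higher in 1 cell type than in both others. Of the 43, 11 and 15 lincRNAs above, 35, 8 and 10 reached 5 CPM in 1 cell type alone. The rule used the levels behind these calls, so nothing is read from the counts. Among the protein-coding genes that meet the level rule the shares were 15.4%, 14.0% and 10.1%. With PSC library 18 and S100β-GFP+ libraries 14, 17 and 22 left out the lincRNA counts were 45, 15 and 15, and without NG2-dsRed+ library 2 alone the count for NG2-dsRed+ cells was 9. With a term for the Lars2, Gm23935 and Gm15564 share the count for PSCs was 28.

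Complete separation of the libraries was rarer. In 14 lincRNAs every PSC library lay above every library of the other cell types, beside 4.94% of all genes tested. In 5 lincRNAs every NG2-dsRed+ library lay above all others, beside 3.01%, and in 3 tested lincRNAs every S100β-GFP+ library did, beside 3.56%, to which the untested Gm30978 and Gm48065 add. Here too the rule fixed the direction of many lincRNAs, and nothing is read from the counts.

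The highest level of all belonged to Malat1 (chr19:5795690-5802672, minus strand, GRCm38), a nuclear RNA retained in speckles that hold splicing factors. Its level was between 2731 and 53060 CPM in PSCs (median 15260), between 1541 and 10010 CPM in S100β-GFP+ cells (median 2675) and between 2539 and 24120 CPM in NG2-dsRed+ cells (median 8725). The cell types overlapped, and within each of them the libraries spread over a wide range. PSC libraries 4, 12, 20 and 36 were the high ones, with 34180 to 53060 CPM, and in these the Lars2, Gm23935 and Gm15564 share was between 3.64% and 9.66%, whereas PSC libraries 6, 23 and 31, with 2731 to 2949 CPM, had shares between 31.5% and 36.6%. Malat1 was higher in PSCs than S100β-GFP+ cells (log2 fold change 1.70 ± 0.59, SE, n = 9 and 8, adjusted p = 0.0183 by edgeR's quasi-likelihood test), but not past the threshold against NG2-dsRed+ cells (0.92 ± 0.54, adjusted p = 0.168). The first call was lost with limma-voom (1.40, adjusted p = 0.0561), with the share as a term (0.14, adjusted p = 0.706) and without S100β-GFP+ libraries 14, 17 and 22 (1.36, adjusted p = 0.115, and 1.41, adjusted p = 0.107, when PSC library 18 was also left out). Per kilobase of exon the mean was 3219 CPM in PSCs, the highest of the lincRNAs described here.

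Malat1 set the share of the counts that fell on the lincRNAs. The 133 lincRNAs together made up 0.596% to 5.64% of a PSC library (median 1.74%), between 0.409% and 1.31% in S100β-GFP+ cells (median 0.523%) and between 0.523% and 2.74% in NG2-dsRed+ cells (median 1.14%). Without Malat1 the medians were 0.336%, 0.285% and 0.289%, and the ranges of the cell types overlapped. PSC library 18 was then the lowest of all libraries at 0.213% and PSC library 36 the highest at 0.398%.

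**Figure D2:**
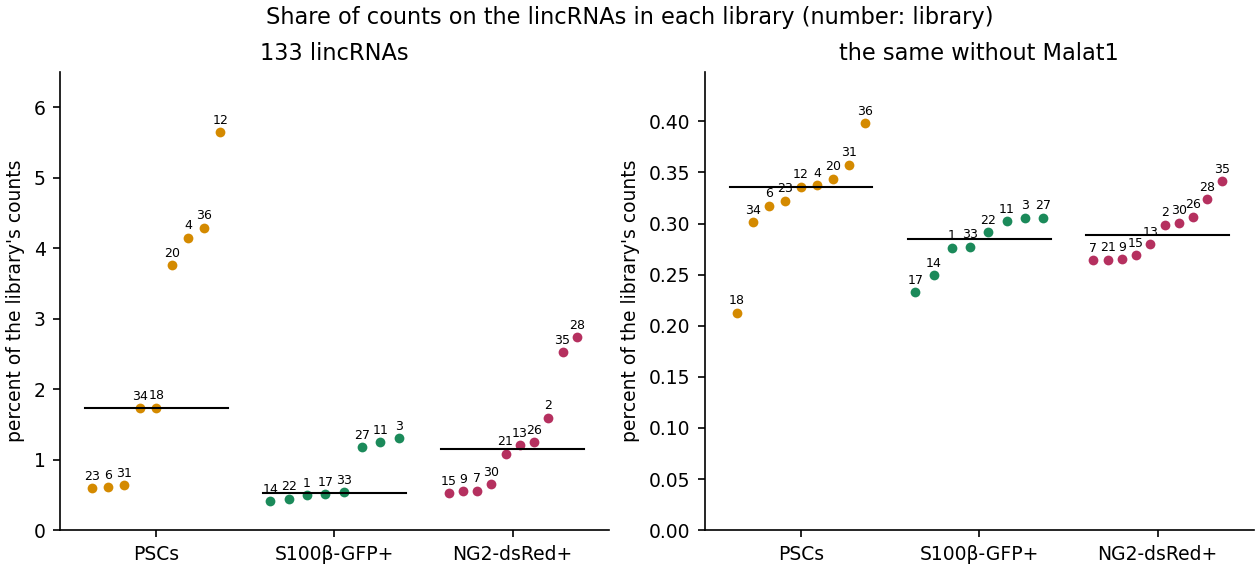
Percent of each library's counts on the 133 lincRNAs (left) and on the same lincRNAs without Malat1 (right), 1 point per library with its number, lines at the medians. PSC libraries 4, 12, 20 and 36 lie above 3.7% on the left, and on the right the medians are 0.336%, 0.285% and 0.289%.

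Neat1 (chr19:5824708-5845478, minus strand), the architectural RNA of paraspeckles, lies close to Malat1 and went the other way. Its level was between 52.1 and 151.7 CPM in PSCs (median 102.3), between 246.9 and 429.1 CPM in S100β-GFP+ cells (median 339.0) and between 204.5 and 359.3 CPM in NG2-dsRed+ cells (median 320.9). Every PSC library was below every library of the other cell types, which overlapped each other. On the log2 scale the difference was -2.25 ± 0.18 against S100β-GFP+ cells (adjusted p = 2.1e-11) and -1.85 ± 0.17 against NG2-dsRed+ cells (adjusted p = 5.47e-10), and both calls were the same with every scaling and with each library left out. Between S100β-GFP+ and NG2-dsRed+ cells the difference was 0.40 ± 0.17 (adjusted p = 0.0745) and passed the threshold without NG2-dsRed+ library 2 (0.46, adjusted p = 0.0493), S100β-GFP+ library 33 (0.45, adjusted p = 0.0498), PSC library 18 (0.43, adjusted p = 0.0265) or PSC library 36 (0.43, adjusted p = 0.0462). It also passed with the DESeq2 Wald test (0.46, adjusted p = 0.0237), DESeq2 size factors (0.46, adjusted p = 0.0385) and limma-voom (0.43, adjusted p = 0.0122). Of 10 listed genes of paraspeckle proteins 5 were higher in PSCs than S100β-GFP+ cells (22.9% of all genes tested) and 6 were higher in PSCs than NG2-dsRed+ cells (20.9%), none was called lower, and their median log2 fold changes were 0.36 and 0.40 (0.04 and 0.02 over all genes tested). Nono, an RNA-binding protein, was at 84.0 to 126.9 CPM in PSCs (median 111.7), with means of 57.9 CPM for S100β-GFP+ and then 69.0 CPM for NG2-dsRed+ cells, and differed by 0.43 (adjusted p = 0.00327) and 0.38 (adjusted p = 0.00489). Sfpq and Pspc1, which bind Neat1 in the paraspeckle core as Nono does, were not called in either comparison with PSCs.

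Hosts of small nucleolar RNAs (Snhg genes) carry these RNAs in their introns, from which they are released at splicing. Snhg18 (chr15:32240565-32244662), 148 bases from the divergent gene Sema5a, was at 30.5 to 406.7 CPM in PSCs (median 248.4), 22.3 to 152.1 CPM in S100β-GFP+ cells (median 37.0) and 23.8 to 480.2 CPM in NG2-dsRed+ cells (median 106.2). Its cell types overlapped over most of their range and no comparison passed the threshold (1.12 ± 0.57 against S100β-GFP+ cells, adjusted p = 0.110), although with column sums that value was 1.61 (adjusted p = 0.0272). Snhg6 was at 5.99 to 27.1 CPM in PSCs (median 14.3), 3.06 to 9.96 CPM in S100β-GFP+ cells (median 5.87) and 2.62 to 10.1 CPM in NG2-dsRed+ cells (median 5.61). Of the 9 PSC libraries 5 were above all others, and its exons overlap those of Mcmdc2 on the other strand, so its counts are uncertain. Against NG2-dsRed+ cells it was higher in PSCs by 1.07 ± 0.29 (adjusted p = 0.00351), and by 0.57 (adjusted p = 0.0785) with the Lars2, Gm23935 and Gm15564 share as a term. Snhg6 differed from S100β-GFP+ cells by 0.74 ± 0.31 (adjusted p = 0.0510), short of the threshold. It passed with the DESeq2 Wald test (0.74, adjusted p = 0.0428), without the filter (0.79, adjusted p = 0.0465), with limma-voom (0.81, adjusted p = 0.0332) and with column sums (1.26, adjusted p = 0.00246). It also passed without any 1 of 13 libraries, PSC 4, 6, 18, 23 and 31, S100β-GFP+ 11, 22 and 33 and NG2-dsRed+ 2, 7, 9, 28 and 35, at 0.74 (adjusted p = 0.0468) to 0.86 (adjusted p = 0.0248). Snhg12 had medians of 14.5, 7.41 and 11.0 CPM for PSCs, then S100β-GFP+ and NG2-dsRed+ cells and was not called (0.53 ± 0.26 between PSCs and S100β-GFP+ cells, adjusted p = 0.0892). That value passed the threshold without PSC library 18 (0.70, adjusted p = 0.0126) or PSC library 20 (0.65, adjusted p = 0.0451), with limma-voom (0.60, adjusted p = 0.0376) and with column sums (1.05, adjusted p = 0.00232). Snhg20 reached 5 CPM in PSCs alone, with 3.94 to 31.1 CPM there (median 11.4), 1.09 to 7.65 CPM in S100β-GFP+ cells (median 3.37) and 0.730 to 4.37 CPM in NG2-dsRed+ cells (median 2.84). Its call between PSCs and S100β-GFP+ cells was lost with the Lars2, Gm23935 and Gm15564 share as a term (0.76, adjusted p = 0.0775). It was also lost without S100β-GFP+ libraries 14, 17 and 22 (0.98, adjusted p = 0.0606). Without these 3 libraries Snhg20 was higher in S100β-GFP+ than NG2-dsRed+ cells (1.08, adjusted p = 0.0353). Proteins that assemble box C/D small nucleolar RNAs were looked at as a list of 9 genes. Of these 1, Ruvbl2, was higher (22.9% of all genes tested) and 1, Fbl, lower (24.1%) in PSCs than S100β-GFP+ cells. Against NG2-dsRed+ cells 1, Ruvbl2, was higher in PSCs (20.9%) and none was lower (23.1%). The median log2 fold changes were -0.07 and -0.00, and nothing is read from the counts.

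Several lincRNAs with described roles in growth and genome stability were found in all 3 cell types. Lockd (chr6:134929092-134956798), which starts 3579 bases downstream of the cell cycle inhibitor gene Cdkn1b, was at 11.8 to 496.5 CPM in PSCs (median 70.9), 1.29 to 15.0 CPM in S100β-GFP+ cells (median 2.50) and 0.438 to 20.7 CPM in NG2-dsRed+ cells (median 2.43). PSC libraries 36, 12 and 4 were the highest, and the 3 lowest PSC libraries, 23, 6 and 31, overlapped the highest libraries of the other cell types. Lockd was higher in PSCs than S100β-GFP+ cells by 3.81 ± 0.79 (adjusted p = 0.000197) and than in NG2-dsRed+ cells by 4.16 ± 0.73 (adjusted p = 2.71e-05), and a lincRNA on the other strand, Gm44238, overlaps its exons. Cdkn1b itself had means of 55.0, 21.2 and 34.5 CPM and differed by 0.87 (adjusted p = 0.000271) and 0.40 (adjusted p = 0.0614). 2900097C17Rik, the mouse Norad gene, whose RNA binds Pumilio proteins, was at 14.1 to 59.7 CPM in PSCs (median 31.1), 37.9 to 60.2 CPM in S100β-GFP+ cells (median 47.9) and 31.1 to 61.6 CPM in NG2-dsRed+ cells (median 37.9). It overlapped between all cell types and was lower in PSCs than S100β-GFP+ cells by -0.94 ± 0.23 on the log2 scale (adjusted p = 0.00139), a call that column sums did not give (-0.46, adjusted p = 0.0724). Against NG2-dsRed+ cells 2900097C17Rik was lower by -0.54 ± 0.22 (adjusted p = 0.0457). This call was lost with the DESeq2 Wald test (-0.50, adjusted p = 0.0506), DESeq2 size factors (-0.50, adjusted p = 0.0579), no filter (-0.54, adjusted p = 0.0818), column sums (-0.29, adjusted p = 0.261) and the Lars2, Gm23935 and Gm15564 share as a term (-0.32, adjusted p = 0.169). It was also lost without S100β-GFP+ libraries 14, 17 and 22 (-0.51, adjusted p = 0.0686, and -0.41, adjusted p = 0.109, when PSC library 18 was also left out). The same held without any 1 of 14 libraries, PSC 4, 12, 18, 20, 34 and 36, S100β-GFP+ 11 and NG2-dsRed+ 2, 7, 9, 26, 28, 30 and 35, at -0.38 (adjusted p = 0.116) to -0.53 (adjusted p = 0.0653). 1700020I14Rik, known as Cyrano, a long-lived RNA that directs the decay of a microRNA, favoured NG2-dsRed+ cells, with 125.9 to 178.7 CPM there (median 150.9), 87.5 to 230.0 CPM in PSCs (median 105.9) and 46.0 to 95.5 CPM in S100β-GFP+ cells (median 76.9). Its NG2-dsRed+ libraries lay above all S100β-GFP+ libraries and overlapped the PSC libraries. It was lower in S100β-GFP+ than in NG2-dsRed+ cells by -0.83 ± 0.16 (adjusted p = 0.000136), and lower in PSCs than NG2-dsRed+ cells by -0.48 ± 0.15 (adjusted p = 0.0119). The second call was lost without NG2-dsRed+ library 2 (-0.39, adjusted p = 0.0556) or 35 (-0.39, adjusted p = 0.0549) or PSC library 4 (-0.39, adjusted p = 0.0573), 18 (-0.35, adjusted p = 0.0660) or 34 (-0.36, adjusted p = 0.0738), with column sums (-0.18, adjusted p = 0.397) and without the filter on low counts (-0.47, adjusted p = 0.0522). Against S100β-GFP+ cells 1700020I14Rik was not called (0.35 ± 0.16, adjusted p = 0.0747). It was with limma-voom (0.40, adjusted p = 0.0249), column sums (0.88, adjusted p = 0.000214), without S100β-GFP+ libraries 14, 17 and 22 (0.57, adjusted p = 0.0182, and 0.62, adjusted p = 0.00656, when PSC library 18 was also left out) and without S100β-GFP+ library 17 (0.44, adjusted p = 0.0257), PSC library 18 (0.45, adjusted p = 0.0217), 31 (0.40, adjusted p = 0.0451) or 34 (0.44, adjusted p = 0.0396).

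Epb41l4aos (chr18:33794892-33795986), a short spliced RNA next to Epb41l4a, was at 3.23 to 57.6 CPM in PSCs (median 18.0), 1.87 to 9.98 CPM in S100β-GFP+ cells (median 5.18) and 2.92 to 7.93 CPM in NG2-dsRed+ cells (median 5.79). PSC library 36 was far above the other PSC libraries, and the lowest PSC libraries lay within the range of the other cell types. It was higher in PSCs by 1.40 ± 0.42 (adjusted p = 0.00731) and 1.52 ± 0.39 (adjusted p = 0.00227), and by 0.16 (adjusted p = 0.665) and 0.34 (adjusted p = 0.300) with the Lars2, Gm23935 and Gm15564 share as a term. 1300002E11Rik was at 12.1 to 39.0 CPM in PSCs (median 19.3), 3.06 to 8.38 CPM in S100β-GFP+ cells (median 6.78) and 7.14 to 17.7 CPM in NG2-dsRed+ cells (median 10.4). Every PSC library was above every S100β-GFP+ library, and its exons overlap those of Map3k13 on the same strand, so part of its counts may belong to that gene. Named after its values were seen, it had log2 fold changes of 1.36 ± 0.24 (adjusted p = 3.14e-05) and 0.83 ± 0.22 (adjusted p = 0.00298). With the Lars2, Gm23935 and Gm15564 share as a term, the second call of 1300002E11Rik was lost. Of the 31 lincRNAs at 5 CPM in all 3 cell types, 1, Lockd, was then higher in PSCs than NG2-dsRed+ cells. AW112010, an interferon-induced transcript of immune cells, was the clearest of the shared lincRNAs toward NG2-dsRed+ cells, with 58.5 to 118.6 CPM there (median 86.8), 4.65 to 38.0 CPM in PSCs (median 20.5) and 9.76 to 60.6 CPM in S100β-GFP+ cells (median 17.2). All NG2-dsRed+ libraries were above all PSC libraries, and S100β-GFP+ library 17 overlapped them. S100β-GFP+ libraries 17, 22 and 14, the highest of these cells for AW112010 (60.6, 47.3 and 21.3 CPM), had the highest S100β-GFP+ sums of endothelial markers, 1514, 890.8 and 509 CPM. They also had counts on the most genes. Libraries 17 and 22, but not 14, led these cells in erythroid sums (100400 and 44850 CPM) and in pericyte and smooth muscle sums (1238 and 1116 CPM). In NG2-dsRed+ cells libraries 28 and 35 had the lowest endothelial sums (1292 and 1544 CPM) with AW112010 at 71.5 and 58.5 CPM, while library 30 had 70.1 CPM with a sum of 2033 CPM. Libraries 28 and 35 also had the smallest NG2-dsRed+ shares on Lars2, Gm23935 and Gm15564 (12.5% and 19.3%), and library 30 had 36.3%. What part endothelial RNA, RNA of another cell type or this share has in these levels was not tested. The log2 fold change was -2.49 ± 0.34 between PSCs and NG2-dsRed+ cells (adjusted p = 6.18e-07) and -1.60 ± 0.34 between S100β-GFP+ and NG2-dsRed+ cells (adjusted p = 0.000498). Between PSCs and S100β-GFP+ cells it was -0.90 ± 0.34 (adjusted p = 0.0321). This last call was lost with column sums (-0.34, adjusted p = 0.387), limma-voom (-0.45, adjusted p = 0.281) and the Lars2, Gm23935 and Gm15564 share as a term (-0.81, adjusted p = 0.112). It was 0.12 (adjusted p = 0.769) without S100β-GFP+ libraries 14, 17 and 22, -0.53 (adjusted p = 0.172) without library 17, -0.70 (adjusted p = 0.0981) without library 22, and it was no longer called without PSC library 12 (-0.86, adjusted p = 0.0536), 18 (-0.79, adjusted p = 0.0640) or 34 (-0.72, adjusted p = 0.0684).

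Dubr, which lies on chromosome 16 and has been studied in muscle cell differentiation, had medians of 20.4 CPM in PSCs, 17.8 CPM in S100β-GFP+ cells and 30.9 CPM in NG2-dsRed+ cells. Its libraries overlapped across all cell types, from 6.00 CPM in PSC library 18 to 61.3 CPM in NG2-dsRed+ library 35. It was lower in PSCs than NG2-dsRed+ cells by -0.82 ± 0.28 (adjusted p = 0.0158), and by -0.70 (adjusted p = 0.0512) without NG2-dsRed+ library 28, -0.65 (adjusted p = 0.0658) without NG2-dsRed+ library 35 and -0.71 (adjusted p = 0.0543) without PSC library 34. With column sums it was -0.52 (adjusted p = 0.172). Against S100β-GFP+ cells Dubr was not called (-0.48 ± 0.29, adjusted p = 0.182), but was with the Lars2, Gm23935 and Gm15564 share as a term (-1.06, adjusted p = 7.92e-05). Tmem250-ps, annotated as a lincRNA although its name marks a pseudogene, had medians of 34.2, 21.0 and 38.0 CPM for PSCs, then S100β-GFP+ and NG2-dsRed+ cells, and its NG2-dsRed+ libraries (27.3 to 49.9 CPM) ran past the PSC libraries (30.2 to 42.1 CPM) at both ends. Between S100β-GFP+ and NG2-dsRed+ cells it differed by -0.50 ± 0.16 (adjusted p = 0.0146). Between PSCs and NG2-dsRed+ cells the difference was -0.39 ± 0.15 (adjusted p = 0.0391), and -0.10 (adjusted p = 0.566) with column sums. That call was also lost with DESeq2 size factors (-0.34, adjusted p = 0.0592), without the filter (-0.39, adjusted p = 0.129), with the Lars2, Gm23935 and Gm15564 share as a term (-0.24, adjusted p = 0.211) and without any 1 of NG2-dsRed+ libraries 2, 7, 9, 13, 15, 26, 30 and 35, PSC libraries 4, 6, 12, 18, 20, 34 and 36 and S100β-GFP+ library 11, where it was between -0.30 (adjusted p = 0.122) and -0.38 (adjusted p = 0.0545). Between PSCs and S100β-GFP+ cells Tmem250-ps was not called (0.11 ± 0.16, adjusted p = 0.595), but was with column sums (0.61, adjusted p = 0.00141).

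A group of lincRNAs lies in repeated sequence, where reads can be placed in more than 1 locus. Gm26917 and Gm42418, neighbours on chromosome 17 beside ribosomal RNA sequence, had medians of 848.9 and 53.1 CPM in PSCs, 1378 and 124.1 CPM in S100β-GFP+ cells and 1246 and 96.4 CPM in NG2-dsRed+ cells. PSC library 31 was the highest of all libraries for Gm26917, at 2131 CPM, while the other PSC libraries ran from 384.1 CPM upward, and an annotated ribosomal RNA on the other strand overlaps the exon of Gm42418. Both were lower in PSCs than S100β-GFP+ cells, by -0.82 ± 0.29 for Gm26917 (adjusted p = 0.0199) and by -1.15 ± 0.31 for Gm42418 (adjusted p = 0.00283). The first call was lost with column sums (-0.36, adjusted p = 0.242), with the Lars2, Gm23935 and Gm15564 share as a term (-0.46, adjusted p = 0.0573) and without S100β-GFP+ libraries 14, 17 and 22 (-0.77, adjusted p = 0.0642, and -0.66, adjusted p = 0.0866, when PSC library 18 was also left out). Against NG2-dsRed+ cells Gm26917 (-0.45 ± 0.27, adjusted p = 0.186) was called with limma-voom (-0.71, adjusted p = 0.00618). For Gm42418 the difference from NG2-dsRed+ cells (-0.58 ± 0.29, adjusted p = 0.106) passed the threshold without PSC library 6 (-0.72, adjusted p = 0.0471), 23 (-0.75, adjusted p = 0.0355) or 31 (-0.73, adjusted p = 0.0419), and with limma-voom (-0.93, adjusted p = 0.00347). Between S100β-GFP+ and NG2-dsRed+ cells Gm42418 (0.56 ± 0.30, adjusted p = 0.153) was called with the Lars2, Gm23935 and Gm15564 share as a term (0.48, adjusted p = 0.0149). Gm26870, on chromosome 9 among copies of repeat-rich genes, was at 0.471 to 314.5 CPM in S100β-GFP+ cells (median 7.04), 2.15 to 21.4 CPM in PSCs (median 10.3) and 1.02 to 22.7 CPM in NG2-dsRed+ cells (median 10.7). S100β-GFP+ libraries 22, 17 and 14, the ones with counts on the most genes, were the only ones above the other cell types, and the remaining S100β-GFP+ libraries were at or below the medians of PSCs and NG2-dsRed+ cells. The fit gave -3.15 ± 0.87 between PSCs and S100β-GFP+ cells (adjusted p = 0.00354) and 2.74 ± 0.82 between S100β-GFP+ and NG2-dsRed+ cells (adjusted p = 0.00996). Without library 22 these were -1.80 (adjusted p = 0.0546) and 1.38 (adjusted p = 0.154), and without libraries 14, 17 and 22 they turned to 1.00 (adjusted p = 0.240) and -1.37 (adjusted p = 0.124). With limma-voom they were -0.40 (adjusted p = 0.752) and -0.20 (adjusted p = 0.866), and the first was -2.38 (adjusted p = 0.108) with the Lars2, Gm23935 and Gm15564 share as a term.

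The 31 lincRNAs at 5 CPM in all 3 cell types were also chosen by level, which leaves out genes restricted to 1 cell type, so their counts are set beside all genes tested and beside the 8508 protein-coding genes at 5 CPM in all 3 cell types, and nothing is read from them. Between PSCs and S100β-GFP+ cells 7 were higher in PSCs (22.9% of all genes, 24.9% of these protein-coding genes), 8 were lower (24.1% and 23.0%) and 16 were not called. Between PSCs and NG2-dsRed+ cells 5 were higher in PSCs (20.9% and 19.8%), 8 were lower (23.1% and 23.9%) and 18 were not called. Between S100β-GFP+ and NG2-dsRed+ cells 2 were higher in S100β-GFP+ cells (18.1% and 15.4%), 5 were lower (15.2% and 18.0%) and 24 were not called. Higher than in both others were 4 in PSCs (1300002E11Rik, D130017N08Rik, Epb41l4aos and Lockd), 2 in S100β-GFP+ cells (Gm26870 and Gm28875) and 4 in NG2-dsRed+ cells (1700020I14Rik, AW112010, Gm26802 and Tmem250-ps), and D130017N08Rik, Gm28875 and Gm26802 are named after their values were seen. The shares of all genes tested were 13.9%, 11.8% and 8.44%, and of the 8508 protein-coding genes 13.8%, 10.2% and 9.43%. None of the 31 had a cell type whose libraries all lay above the others, beside 4.94%, 3.56% and 3.01% of all genes tested and 4.90%, 1.35% and 3.31% of the 8508 protein-coding genes for PSCs, then S100β-GFP+ and NG2-dsRed+ cells. Of the 31, 10 were not called in any comparison (35.0% of the 8508 protein-coding genes).

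These small counts moved with single libraries. The count of 4 for PSCs was 7 without PSC library 18. The count of 4 for NG2-dsRed+ cells was 1 without NG2-dsRed+ library 2 or 35 or PSC library 4, 18 or 34, and 2 without S100β-GFP+ library 11, NG2-dsRed+ library 26 or PSC library 12 or 20. The count of 2 for S100β-GFP+ cells was 0 without S100β-GFP+ library 22 and 1 without S100β-GFP+ library 3, 11, 14 or 27, PSC library 6 or 31, or NG2-dsRed+ library 7, 9, 13, 15, 21, 26, 30 or 35, and the 2 lincRNAs higher in S100β-GFP+ than in NG2-dsRed+ cells moved with the same libraries and were 4 without PSC library 18. The 8 that were lower in PSCs than NG2-dsRed+ cells were 3 without PSC library 34 or NG2-dsRed+ library 35, 4 without PSC library 4 or 18 or NG2-dsRed+ library 2, and 5 without PSC library 12 or 20, S100β-GFP+ library 11 or NG2-dsRed+ library 26 or 28. With column sums 16 were higher and 4 lower in PSCs than S100β-GFP+ cells.

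Among the most even lincRNAs, Gm20300 (chr10:30603195-30606634) was at 6.75 to 15.4 CPM in PSCs (median 11.6), 3.83 to 10.7 CPM in S100β-GFP+ cells (median 7.76) and 5.26 to 14.4 CPM in NG2-dsRed+ cells (median 10.6). The cell types overlapped throughout, and the log2 fold changes were 0.05 ± 0.22, -0.19 ± 0.20 and -0.24 ± 0.21 for PSCs against S100β-GFP+, PSCs against NG2-dsRed+ and S100β-GFP+ against NG2-dsRed+ cells. The first was 0.53 (adjusted p = 0.0459) with column sums. Gdap10, inside the gene Nampt on the same strand and therefore uncertain in its counts, had medians of 18.6, 19.9 and 14.5 CPM. It was not called between PSCs and S100β-GFP+ cells (-0.60 ± 0.28, adjusted p = 0.0782), but was with limma-voom (-0.73, adjusted p = 0.0134) and without PSC library 23 (-0.72, adjusted p = 0.0353) or 31 (-0.70, adjusted p = 0.0417) or S100β-GFP+ library 33 (-0.69, adjusted p = 0.0490). Between S100β-GFP+ and NG2-dsRed+ cells Gdap10 differed by 0.57 ± 0.27 (adjusted p = 0.114), by 0.61 (adjusted p = 0.0178) with limma-voom and by 0.60 (adjusted p = 0.0355) without PSC library 18. Gm26825 had medians of 21.9, 11.5 and 22.6 CPM with ranges that overlapped from 3.26 to 49.3 CPM. With the Lars2, Gm23935 and Gm15564 share as a term Gm26825 was lower in PSCs, by -1.63 against S100β-GFP+ cells (adjusted p = 0.000648) and by -1.58 against NG2-dsRed+ cells (adjusted p = 0.000518). Gm10076, a short single-exon transcript, was at medians of 112.0, 33.2 and 54.6 CPM and was not called (0.50 ± 0.43 between PSCs and S100β-GFP+ cells, adjusted p = 0.364), and with the Lars2, Gm23935 and Gm15564 share as a term its difference turned to -0.63 (adjusted p = 0.0328).

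The lincRNAs that favoured PSCs most were low or without a count in nearly all other libraries. Gm12688 (chr4:99653607-99654983, minus strand) was at 73.7 to 137.0 CPM in PSCs (median 96.3), 0.540 to 2.68 CPM in S100β-GFP+ cells (median 0.757) and 0 to 1.02 CPM in NG2-dsRed+ cells (median 0.175). Every PSC library was above every other library, and the mean in PSCs was 96.7 times the mean in S100β-GFP+ cells. It is divergent from Foxd3, a transcription factor gene of neural crest and glial precursors that starts 1316 bases away, with means of 296.6, 5.70 and 1.22 CPM for PSCs, then S100β-GFP+ and NG2-dsRed+ cells. Foxd3 was higher in PSCs by 5.24 (adjusted p = 1.38e-11) and 7.66 (adjusted p = 1.06e-14) on the log2 scale. Gm20754 (chr3:73066316-73594830, plus strand), a transcript that spans most of the interval between Slitrk3 and Bche, was at 12.5 to 50.5 CPM in PSCs (median 35.1), 0 to 0.668 CPM in S100β-GFP+ cells (median 0.133) and 0 to 0.338 CPM in NG2-dsRed+ cells (median 0). Its PSC libraries were all above the others, with library 31 the lowest. Slitrk3, a synaptic adhesion gene 8513 bases away on the other strand, had means of 148.2, 0.484 and 0.552 CPM, and Bche, the butyrylcholinesterase gene at the far end, 1228, 5.67 and 4.42 CPM. All 3 genes of the interval thus favoured PSCs, while Sis, the next gene beyond Slitrk3, was below 1 CPM in each cell type.

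**Figure D3:**
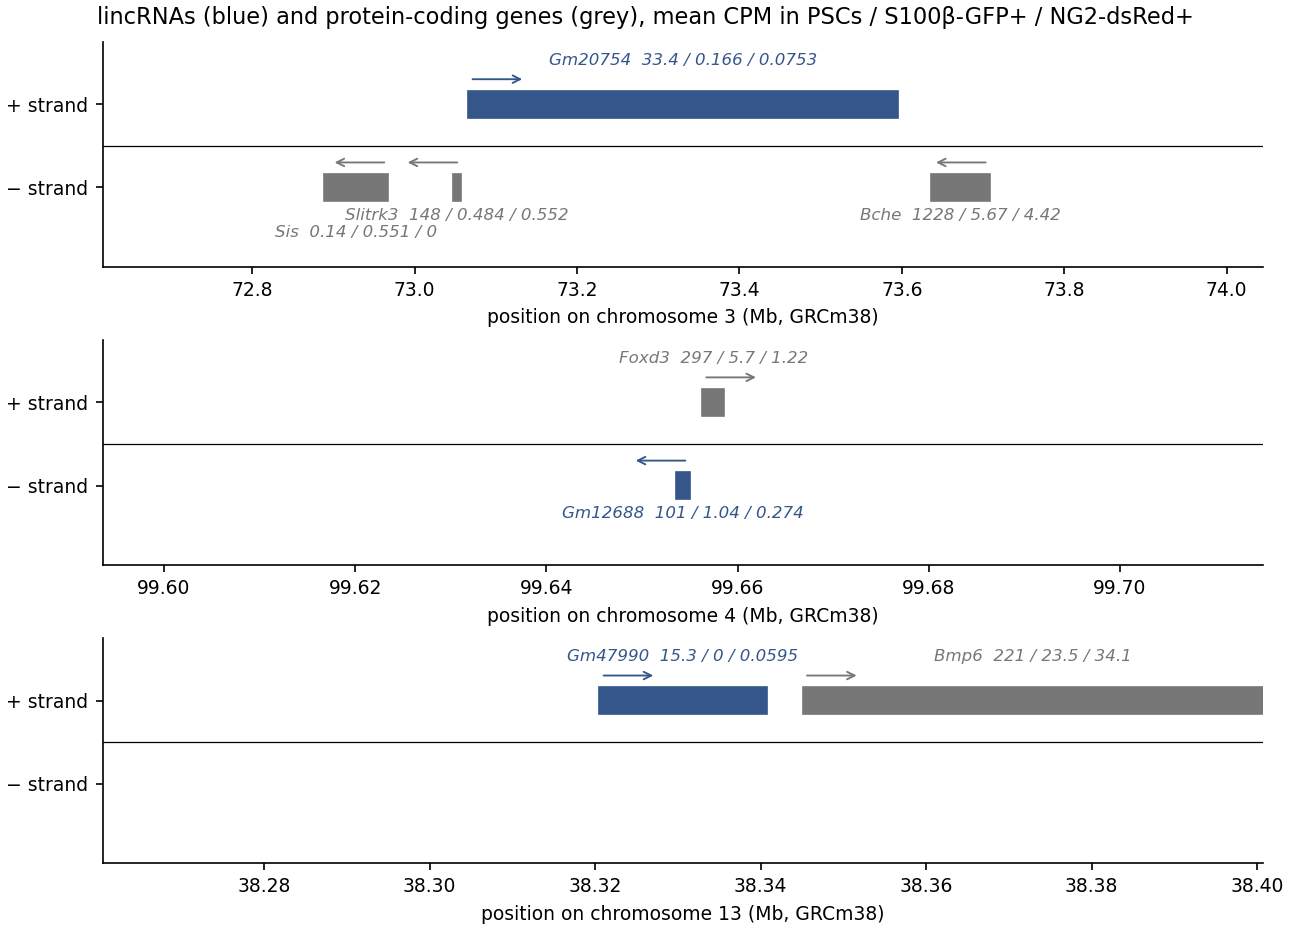
Map of 3 loci to scale (GRCm38 position in Mb), with lincRNAs in blue, protein-coding genes in grey, the + strand above the line and the - strand below, and arrows at the starts of genes. The mean CPM for PSCs, then S100β-GFP+ and NG2-dsRed+ cells stands at each gene, for example 101.0, 1.05 and 0.274 for Gm12688 and 296.6, 5.70 and 1.22 for Foxd3.

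Gm47990 (chr13:38320526-38340721, plus strand), which ends 4386 bases before Bmp6, had 1022 counts in PSCs against 4 in NG2-dsRed+ cells and none in the S100β-GFP+ libraries. All 9 PSC libraries held it, from 7.38 CPM in library 34 to 21.4 CPM in library 18. Bmp6, a growth factor of the TGF-beta family, had means of 221.3, 23.5 and 34.1 CPM and was higher in PSCs by 2.72 (adjusted p = 2.03e-07) and 2.44 (adjusted p = 3.16e-07). Gm42825 (chr3:124839509-124936860, plus strand) was at 2.42 to 18.9 CPM in PSCs (median 7.92), with 2 counts in all S100β-GFP+ libraries and none in NG2-dsRed+ cells. Its nearest protein-coding gene is 258408 bases away and was not tested. Gm13174 (chr4:153218176-153218595, plus strand) ranged from 5.61 to 41.2 CPM in PSCs (median 8.93), with 6 counts in S100β-GFP+ cells, all in library 22, and 3 in NG2-dsRed+ cells. PSC library 18 was far above the rest, and the other PSC libraries were at 12.5 CPM or less. The nearest protein-coding gene, Ajap1, which encodes a junction protein, is 154626 bases away with means of 543.6, 1.47 and 8.44 CPM. D030068K23Rik (chr8:109075222-109273811, plus strand) ranged from 4.36 to 101.1 CPM in PSCs (median 29.0), 0 to 2.41 CPM in S100β-GFP+ cells (median 0) and 0 to 0.506 CPM in NG2-dsRed+ cells (median 0.158). PSC libraries 36, 20, 12 and 4 were the high ones, which are those with the smallest Lars2, Gm23935 and Gm15564 share. Its neighbour Zfhx3, a homeobox factor gene, did not follow it, with means of 122.9, 63.9 and 128.1 CPM. 1700047M11Rik (chr1:182287990-182303325), chosen after its values were seen, was the most even of these, with 34.8 to 50.6 CPM in PSCs (median 40.4), 0.131 to 2.47 CPM in S100β-GFP+ cells (median 0.712) and 0 to 3.56 CPM in NG2-dsRed+ cells (median 0.653).

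Some further lincRNAs that favoured PSCs are named with their neighbours after their values were seen, 3 of them (4930570G19Rik, Gm27202 and 4632428C04Rik) from the 14 with separate PSC libraries. 4930570G19Rik starts 48 bases from Negr1, a neuronal adhesion gene, on the other strand, with means of 7.54, 1.13 and 0.423 CPM for the lincRNA and 155.5, 8.16 and 2.27 CPM for Negr1. Gm27202 lies 8210 bases from Prdm16, a zinc finger factor gene, with means of 18.4, 0.0497 and 1.93 CPM beside 62.9, 8.16 and 33.4 CPM. 4632428C04Rik lies 42954 bases from Hes1, a Notch target gene, and had means of 6.79, 0.426 and 0.827 CPM. The levels of Hes1 are not given here. Gm45768, on the strand of Zfp536 and 151035 bases from it, had means of 5.35, 0.605 and 0.542 CPM beside 82.1, 4.91 and 1.77 CPM for Zfp536, and its PSC libraries overlapped the others. Gm26580, inside the potassium channel gene Kcnq5 on the other strand and uncertain for that reason, had 8.21, 0.235 and 0.311 CPM beside 11.8, 0.888 and 0.751 CPM for Kcnq5. Not every pair matched, as Gm45869 favoured PSCs (5.97, 0.718 and 0.0975 CPM) while its neighbour Kcna5 favoured NG2-dsRed+ cells (10.2, 9.47 and 81.5 CPM).

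The lincRNAs that favoured S100β-GFP+ cells most were almost without counts in the other cell types. Gm46224 (chr10:51526340-51531161, plus strand) ranged from 2.09 to 27.8 CPM in S100β-GFP+ cells (median 8.58), with 1 count in all PSC libraries and 5 in NG2-dsRed+ cells. Gm36161 (chr13:120010390-120018931, plus strand) ranged from 1.60 to 21.6 CPM (median 9.09), with 1 count in PSCs and 7 in NG2-dsRed+ cells. Gm36723 (chr12:25303940-25471979, plus strand) ranged from 1.92 to 12.4 CPM (median 4.57), with 19 counts in PSCs and 3 in NG2-dsRed+ cells. S100β-GFP+ library 3 was the highest for these, and every S100β-GFP+ library was above every other library. The untested Gm48065 (chr10:44597889-44602174, minus strand) ranged from 1.18 to 17.2 CPM (median 5.91), again highest in library 3, with 2 counts in PSCs and none in NG2-dsRed+ cells. The untested Gm30978 (chr8:25415119-25429224, minus strand) ranged from 1.34 to 13.4 CPM (median 7.62), highest in library 11, with 2 counts in PSCs and 3 in NG2-dsRed+ cells. Their nearest tested protein-coding genes included Id2 for Gm36723 (68.9, 319.0 and 80.3 CPM for PSCs, then S100β-GFP+ and NG2-dsRed+ cells), Fgfr1 for Gm30978 (81.2, 232.0 and 93.1 CPM) and Prdm1, a factor of lymphoid and myeloid cells, for Gm48065 (1.84, 14.0 and 17.3 CPM).

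The sum of the macrophage and leukocyte markers was 8801 CPM in S100β-GFP+ library 3, the highest of all libraries, and 884.8 CPM in library 22, the lowest of the S100β-GFP+ libraries, in which Gm36161 and Gm30978 were also at their lowest. Gm46224 and Gm48065 were lowest in library 14, where the sum was 2616 CPM. Gm36723 was at 5.34 CPM in library 22, above its median, and lowest in library 33, where the sum was 4421 CPM. In PSCs the markers Ptprc, Csf1r, Adgre1, C1qa, Cd68 and Lyz2 had means of 1.27, 1.61, 0.434, 0.363, 3.94 and 191.7 CPM, with Adgre1 at 0 in 2 libraries, against 254.6, 172.3, 91.2, 99.5, 115.2 and 3902 CPM in S100β-GFP+ cells. Lyz2 was also higher in PSCs than NG2-dsRed+ cells, where its mean was 26.5 CPM (2.65 ± 0.49, adjusted p = 5.32e-05). The Lars2, Gm23935 and Gm15564 share was 22.4% in S100β-GFP+ library 3 and 38.9% in library 22. What part leukocyte RNA or this share has in the S100β-GFP+ levels of these lincRNAs was not tested. AI504432, beside the lymphocyte potassium channel gene Kcna3, and Gm47230, 17731 bases from the B cell chemokine receptor gene Cxcr5, are further lincRNAs that favoured S100β-GFP+ cells and are named after their values were seen. AI504432 had a mean of 5.86 CPM in S100β-GFP+ cells against 1.51 CPM in PSCs and 0.117 CPM in NG2-dsRed+ cells, and Gm47230 had 8.69 CPM against 0.0392 and 0.254 CPM, both highest in library 3.

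Lncpint, a target of p53 that also carries a conserved silencing element, was at 5.61 to 19.6 CPM in S100β-GFP+ cells (median 7.96), 0.321 to 7.31 CPM in PSCs (median 1.14) and 2.58 to 8.10 CPM in NG2-dsRed+ cells (median 5.55). PSC library 18 stood above the other PSC libraries and was the only one within the range of the S100β-GFP+ libraries. Its sum of macrophage and leukocyte markers was the highest of PSCs (609.9 CPM against a median of 153.3 CPM), but Lyz2 made up 605.3 CPM of it, and Cd68 was at its lowest PSC level there, 0.562 CPM. S100β-GFP+ libraries 3, 11 and 27, the highest for Lncpint (19.6, 15.5 and 12.8 CPM), had the highest leukocyte sums (8801, 6665 and 6023 CPM), and libraries 17 and 22 were lowest for both. Libraries 3, 11 and 27 also had the smallest S100β-GFP+ shares on Lars2, Gm23935 and Gm15564 (22.4%, 19.5% and 22.5%). In NG2-dsRed+ cells the median leukocyte sum was 33.0 CPM. Mirg, a host of microRNAs in the imprinted Dlk1-Dio3 domain, favoured both single-labelled cell types over PSCs, with 6.27 to 13.8 CPM in S100β-GFP+ cells (median 11.3), 1.87 to 19.6 CPM in NG2-dsRed+ cells (median 6.38) and 0 to 3.74 CPM in PSCs (median 1.56). NG2-dsRed+ libraries 28 and 35, with Mirg at 19.6 and 14.9 CPM, had the highest NG2-dsRed+ fibroblast sums (21190 and 16260 CPM), and library 13 had 1.87 CPM with a sum of 5023 CPM. Libraries 28 and 35 also had the smallest NG2-dsRed+ shares on Lars2, Gm23935 and Gm15564 (12.5% and 19.3%). Mirg was at 4.66 CPM in library 2, which had the lowest NG2-dsRed+ fibroblast sum, 2266 CPM. S100β-GFP+ library 3, where the share was 22.4%, was lowest among these cells for Mirg and for the fibroblast sum (15160 CPM). A730020M07Rik was just inside the level rule, with a mean of 5.04 CPM in S100β-GFP+ cells and at most 2.74 CPM in a PSC library and 0.873 CPM in an NG2-dsRed+ library. S100β-GFP+ libraries 33 and 14, the highest for A730020M07Rik (7.66 and 7.45 CPM), had the highest fibroblast sums (30730 and 30160 CPM), and library 3, the lowest (2.23 CPM), had the lowest. What part leukocyte or fibroblast RNA, or the Lars2, Gm23935 and Gm15564 share, has in the levels of Lncpint, Mirg and A730020M07Rik was not tested.

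In NG2-dsRed+ cells the leading cell-type-restricted lincRNAs included a pair known from the cardiovascular system. Carmn (chr18:61649625-61665537, minus strand), known as the host of the smooth muscle microRNAs miR-143 and miR-145, was at 18.6 to 49.3 CPM in NG2-dsRed+ cells (median 28.3), 0 to 10.7 CPM in PSCs (median 0.963) and 0.353 to 4.34 CPM in S100β-GFP+ cells (median 1.89). All NG2-dsRed+ libraries were above all others, and PSC library 18 was the highest PSC library. Bvht (chr18:61639542-61647472, plus strand), named Braveheart for its part in heart muscle differentiation and adjacent to Carmn, was at 10.1 to 20.1 CPM in NG2-dsRed+ cells (median 12.5), 0.187 to 6.27 CPM in PSCs (median 2.83) and 1.18 to 7.35 CPM in S100β-GFP+ cells (median 2.57). Its NG2-dsRed+ libraries were also separate from the rest. Il17b, the nearest protein-coding gene of both, had a mean of 0.0966 CPM in NG2-dsRed+ cells and was not tested. The 8 pericyte and smooth muscle markers had their highest sums in the same libraries as a group, but among the NG2-dsRed+ libraries Carmn was highest in library 28, where that sum was 8586 CPM against a median of 11100 CPM. What part each kind of NG2-dsRed+ cell has in these levels was not tested.

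Gm14005 (chr2:128178319-128502765, minus strand), the locus of Morrbid, which is known to repress the cell death gene Bcl2l11 in myeloid cells, was at 20.2 to 32.4 CPM in NG2-dsRed+ cells (median 22.8), 4.72 to 11.9 CPM in S100β-GFP+ cells (median 6.47) and 0.375 to 4.84 CPM in PSCs (median 2.09). The NG2-dsRed+ libraries were separate from both others. Bcl2l11, 15772 bases away, had means of 18.5, 39.2 and 24.8 CPM for PSCs, then S100β-GFP+ and NG2-dsRed+ cells, so it was highest in another cell type than the lincRNA, and other lincRNAs overlap the exons of Gm14005. Gm17501, 331 bases from the divergent gene Ccn1, was at 4.95 to 16.2 CPM in NG2-dsRed+ cells (median 8.19), 0.959 to 4.01 CPM in PSCs (median 3.13) and 0.213 to 2.88 CPM in S100β-GFP+ cells (median 2.19). Gm39090, which overlaps Bcl7c on the other strand and is uncertain for that reason, was at 2.04 to 14.5 CPM in NG2-dsRed+ cells (median 4.82), 0 to 1.30 CPM in PSCs (median 0.401) and 0 to 1.45 CPM in S100β-GFP+ cells (median 0.266). Both had every NG2-dsRed+ library above all others. Gm26764 was at the edge of the rule with a mean of 5.00 CPM in NG2-dsRed+ cells. Just outside the rule were Gm17354, with a highest mean of 4.83 CPM, and Ino80dos, with 4.78 CPM, both in PSCs.

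**Figure D4:**
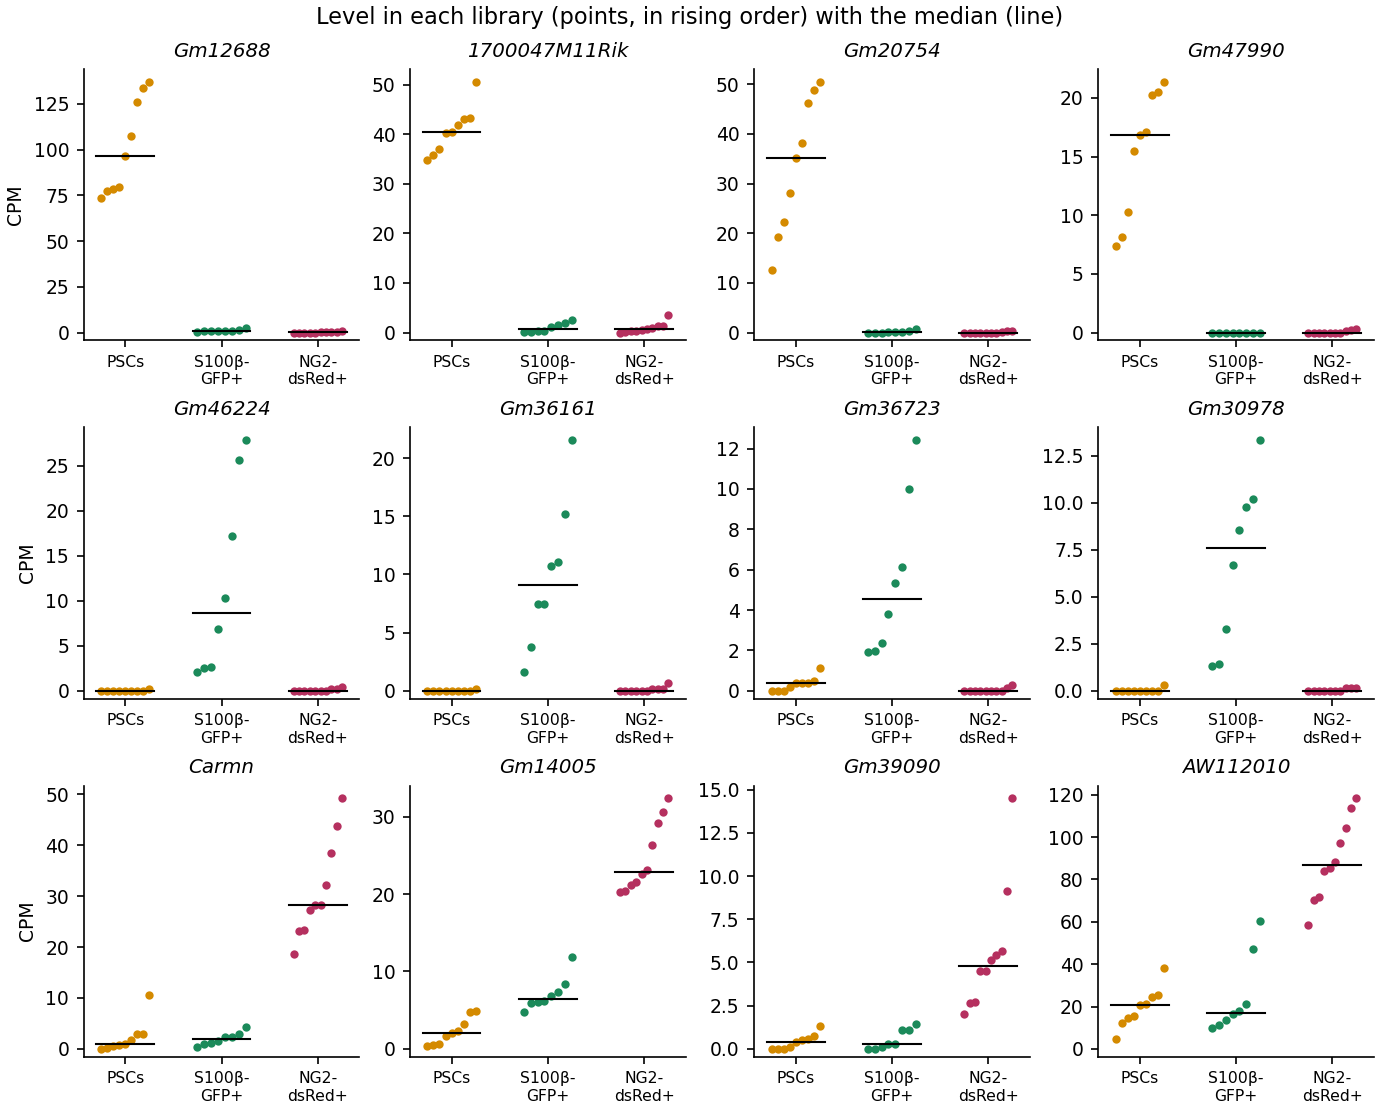
CPM of 12 lincRNAs in each of 9 PSC, 8 S100β-GFP+ and 10 NG2-dsRed+ libraries (points, in rising order; lines, medians), each panel with its own linear axis from 0. The top row favours PSCs, for example Gm12688 with 73.7 to 137.0 CPM against at most 2.68 CPM elsewhere, the middle row S100β-GFP+ cells and the bottom row NG2-dsRed+ cells, where only AW112010 overlaps another cell type.

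The log2 fold changes of the lincRNAs were set beside those of their nearest protein-coding genes. Across 100 lincRNAs with a tested neighbour, the Pearson correlation of the log2 fold changes of lincRNA and neighbour was 0.61 for PSCs against S100β-GFP+ cells, 0.58 for PSCs against NG2-dsRed+ cells and 0.38 for S100β-GFP+ against NG2-dsRed+ cells. Over the 76 pairs that do not overlap it was 0.59, 0.55 and 0.26, and over the 39 pairs more than 5000 bases apart it was 0.63, 0.49 and -0.02. With neighbours taken by nearest start it was 0.60, 0.55 and 0.50 over 97 pairs, and 0.60, 0.45 and 0.33 over the 57 of them more than 5000 bases apart. Among the 100 pairs, 36 lincRNAs were called higher in PSCs than in both others. Of their neighbours 15 were called so for PSCs (13.9% of all genes tested) and 5 for another cell type. For S100β-GFP+ cells it was 3 and 1 of 5 (11.8%), and for NG2-dsRed+ cells 3 and 3 of 12 (8.44%). Nothing is read from these counts. All of these are descriptions across genes, which share the libraries and are not independent replicates.

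In structure, the 133 lincRNAs differed from the 4362 autosomal lincRNAs of the table other than H19 and Meg3. Their median exonic length was 2472 bases against 1009 bases, and single-exon genes made up 13.5% of them against 6.26%. They lay closer to protein-coding genes, with a median gap of 3982 bases against 33679 bases, and 24.8% overlapped a protein-coding gene against 10.1%. Divergent genes within 1000 bases were found beside 11 of them, 8.27% against 5.30%. Levels in CPM rise with length, so the length is tied to the rule. The lincRNAs lay on all 19 autosomes with at most 10 on 1 chromosome. The sources do not tell whether strand was used in counting, so the levels of the 33 lincRNAs that overlap a protein-coding gene are uncertain.

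Of the lincRNAs 6 hold microRNA hairpins on their own strand, 20 hairpins with 37 mature microRNAs in the RefSeq table, and 6 of the mature sequences, from 4 of the hosts, are printed and were chosen after the values of the hosts were seen. MicroRNAs pair with messenger RNAs through the seed, bases 2 to 8, shown in capitals. C130071C03Rik, the host of Mir9-2 on chromosome 13, had means of 8.54 CPM in PSCs, 0.760 CPM in S100β-GFP+ cells and 0.0304 CPM in NG2-dsRed+ cells, and miR-9 is known from the developing nervous system. E130102H24Rik, the host of Mir101a on chromosome 4, had means of 7.59, 2.31 and 5.46 CPM. 4833445I07Rik, the host of Mir191 and Mir425 on chromosome 9, had means of 1.06, 10.3 and 2.80 CPM, and its S100β-GFP+ level was 38.8 CPM in library 3 against a median of 4.31 CPM. Libraries 3, 11 and 27 were the highest for 4833445I07Rik and for the leukocyte markers. The same libraries had the smallest S100β-GFP+ shares on Lars2, Gm23935 and Gm15564. What part leukocyte RNA or this share has in the level of 4833445I07Rik was not tested. Mirg holds 14 hairpins with 26 mature microRNAs and 25 different seeds, as miR-453 and miR-496a-5p share GGUUGCC. The sequences are from GRCm38.p6 at chr13:83738821-83738843 (plus strand), chr4:101346957-101346977 (minus), chr9:108568325-108568347 (plus), chr9:108568789-108568811 (plus), chr12:109735669-109735692 (plus) and chr12:109739132-109739152 (plus), in the order printed. The table counts the host and not the mature microRNA, whose level was not measured.
miR-9-5p: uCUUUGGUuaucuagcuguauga
miR-101a-3p: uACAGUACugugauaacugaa
miR-191-5p: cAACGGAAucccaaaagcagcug
miR-425-5p: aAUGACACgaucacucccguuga
miR-453: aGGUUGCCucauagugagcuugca
miR-496a-5p: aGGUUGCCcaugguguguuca

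Of 10 genes of microRNA processing 9 were tested, as Dgcr8 had no count in any library of the table. Against S100β-GFP+ cells 1, Drosha, was higher in PSCs (22.9% of all genes tested) and 1, Ago2, lower (24.1%). Against NG2-dsRed+ cells 2, Drosha and Prkra, were higher (20.9%) and 1, Ago2, lower (23.1%). Nothing is read from these counts. Drosha, the nuclease that releases hairpins from host transcripts, ranged from 30.6 to 53.6 CPM in PSCs (median 33.1), with means of 14.8 and 22.5 CPM for S100β-GFP+ and then NG2-dsRed+ cells, and differed by 0.80 (adjusted p = 4.44e-05) and 0.43 (adjusted p = 0.0105). The median log2 fold changes of the tested genes were 0.18 and -0.06.

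Promoter windows were available for 66 of the 133 lincRNAs in the RefSeq table, as 78 windows of 300 bases each from GRCm38.p6, and 40 of the 66 had a window that holds the GENCODE start. Letters were searched on both strands in these and in all 32851 windows. TATAAA was in 8.97% of the windows of the lincRNAs (13.6% of all windows), CCAAT in 41.0% (37.4%), GGGCGG in 37.2% (35.7%) and CACGTG, which reads the same on both strands, in 6.41% (7.15%). The core letters of SOX proteins, ACAAAG and AACAAT, were in 15.4% (18.7%) and 7.69% (10.7%). TGACTCA, the letters bound by AP-1 proteins, was in 8 of 78 windows, 10.3% against 5.20% of all windows. A match describes the letters of a window and is neither a site nor a cause. The windows of 4 lincRNAs with separate libraries and a match are printed, for D030068K23Rik at chr8:109074972-109075271, for Gm20754 at chr3:73066101-73066400 and for Gm47990 at chr13:38320257-38320556 among those of PSCs, and for Gm36161 at chr13:120010092-120010391 among those of S100β-GFP+ cells, all on the plus strand with the matches in capitals. The matches are CCAAT and GGGCGG, both read on the other strand, in D030068K23Rik, ACAAAG in Gm20754, TGACTCA in Gm47990 and ACAAAG on each strand in Gm36161.
D030068K23Rik: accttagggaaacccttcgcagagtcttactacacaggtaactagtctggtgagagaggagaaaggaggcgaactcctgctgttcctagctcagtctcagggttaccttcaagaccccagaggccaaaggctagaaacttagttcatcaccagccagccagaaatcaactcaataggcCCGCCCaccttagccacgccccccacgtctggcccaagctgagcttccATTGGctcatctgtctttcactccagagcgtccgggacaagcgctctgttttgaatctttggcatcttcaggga
Gm20754: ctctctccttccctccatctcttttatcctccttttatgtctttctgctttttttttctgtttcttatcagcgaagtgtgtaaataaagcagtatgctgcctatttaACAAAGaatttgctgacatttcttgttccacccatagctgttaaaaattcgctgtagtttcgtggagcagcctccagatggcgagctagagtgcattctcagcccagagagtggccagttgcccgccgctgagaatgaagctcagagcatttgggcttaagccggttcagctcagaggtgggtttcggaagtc
Gm47990: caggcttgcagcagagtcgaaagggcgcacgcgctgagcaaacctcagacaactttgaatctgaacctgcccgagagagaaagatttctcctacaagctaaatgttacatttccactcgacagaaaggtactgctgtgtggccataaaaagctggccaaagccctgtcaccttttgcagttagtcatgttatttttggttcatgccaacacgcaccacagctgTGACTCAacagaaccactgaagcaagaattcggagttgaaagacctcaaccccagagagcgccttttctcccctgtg
Gm36161: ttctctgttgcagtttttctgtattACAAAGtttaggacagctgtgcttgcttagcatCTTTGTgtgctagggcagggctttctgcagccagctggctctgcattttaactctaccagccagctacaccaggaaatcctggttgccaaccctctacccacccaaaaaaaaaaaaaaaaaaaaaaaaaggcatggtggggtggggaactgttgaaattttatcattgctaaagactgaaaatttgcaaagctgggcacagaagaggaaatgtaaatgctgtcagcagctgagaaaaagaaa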

How the data were processed

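RNA-seq counts of 27 libraries in 3 cell types were used, of 36 that the labels name. The authors aligned the reads with HISAT2 to GRCm38 and counted them per gene with HTSeq, as the submitters' notes state without versions, and the deposited table holds whole-number counts without normalization. Neither the notes nor the labels state whether strand was used. Gene types, symbols and positions came from GENCODE M21, which has 52403 of the identifiers (99.56%), and sequences from RefSeq (GRCm38.p6). No columns of 1 cell type were identical, and between each pair the chi-square was 8.93 or more per degree of freedom, over genes with at least 20 counts in the pair.

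Fits used edgeR 4.0.16 under R 4.3.3 with TMM, filterByExpr (minimum count 10, 15330 genes kept), 1 quasi-likelihood fit of all libraries and Benjamini-Hochberg adjustment at 0.05. Errors of log2 fold changes are SE. Levels are CPM by column sums, written with Python 3.11.15 and pandas 2.3.3. The processing was tested on simulated data. Floors cover counting error only, and reads that PCR copied from 1 molecule look like separate ones there. The SE of the quasi-likelihood fit also holds the spread between libraries.

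The lincRNAs and the gene lists were chosen with earlier results of these data known. Named are lincRNAs with a literature name and, for each cell type, the 5 of highest mean among the lincRNAs whose highest mean is there. Also named are the 5 with the largest smaller fold change among those with separate libraries, the 5 most even at 5 CPM in all cell types, and those at the edge of the level rule. Others are marked as named after their values were seen. The marker and protein lists were paraspeckle, box C/D snoRNP and microRNA processing proteins and markers of fibroblasts, pericytes and smooth muscle, endothelium, satellite cells, muscle fibres, leukocytes with macrophages, chondrocytes and tenocytes, erythroid cells, Schwann cell lineage and myelinating Schwann cells.

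Alternatives were limma-voom 3.58.1 with quality weights, the Wald test of DESeq2 1.42.0, its size factors in the edgeR fit, a fit of all genes without the filter, a test against a 2-fold change, other level rules and leaving out each library. Column sums in the fit, the share of Lars2, Gm23935 and Gm15564 as a term, and fits without S100β-GFP+ libraries 14, 17 and 22, with or without PSC library 18, were chosen after seeing the data.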

Additional observations from a re-analysis of the deposited data

Results flagged for a closer look

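Single libraries far from the others of their cell type were looked for in 129 groups of libraries, and 22 passed Dixon's value. Chance flags about 1 in 20 groups, and many of the lincRNAs concerned rest on few counts in the cell type flagged. The part of any library's quality in these levels was not tested.

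PSC library 18 was set apart most often. It had counts on 14620 genes (rounded), the lowest of the PSC libraries, and among PSC libraries it was the highest for Carmn (10.7 CPM against a median of 0.963), Lncpint (7.31 against 1.14), Gm13174 (41.2 against 8.93), Gm36723 (1.13 against 0.360) and Gm36161 (0.187 against 0) and the lowest for Gm26764 (0 against 2.44). PSC library 36, which has the smallest share on Lars2, Gm23935 and Gm15564, was the highest PSC library for Lockd (496.5 CPM against a median of 70.9), Epb41l4aos (57.6 against 18.0) and A730020M07Rik (2.74 against 0.209). PSC library 31 held the only PSC count of Gm46224 (0.163 CPM) and PSC library 23 the only PSC counts of Gm30978 (0.323 CPM).

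S100β-GFP+ library 22, with counts on the most genes, was the highest S100β-GFP+ library for Gm26870 (314.5 CPM against a median of 7.04), D030068K23Rik (2.41 against 0), Gm13174 (0.802 against 0) and Gm20754 (0.668 against 0.133). S100β-GFP+ library 33 was the highest for Gm12688 (2.68 CPM against 0.757).

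Among NG2-dsRed+ libraries the highest ones were library 7 for Gm12688 (1.02 CPM against a median of 0.175), library 30 for Gm46224 (0.379 against 0), library 13 for Gm36161 (0.679 against 0), library 9 for Gm36723 (0.258 against 0) and library 35 for Gm26764 (8.58 against 4.64).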

How the results depend on the processing

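The log2 fold changes of 38 named and tested lincRNAs were computed under 8 alternatives and with each library left out. The test against a 2-fold change was not applied to them. The alternatives gave 912 values, among them those without S100β-GFP+ libraries 14, 17 and 22, with or without PSC library 18. Of the 912, 836 had the same direction and side of the threshold, 38 were no longer past it, 30 were newly past it and 8 reversed. Of 3078 values with 1 library left out, 2999 were the same, 48 were no longer past the threshold, 31 were newly past it and none reversed. The cause was not tested for any change below, except that a test against a 2-fold change calls fewer genes by construction.

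For PSCs, S100β-GFP+ and NG2-dsRed+ cells the lincRNAs higher than in both others numbered 43, 11 and 15, and 23, 6 and 5 in the test against a 2-fold change, 17 for S100β-GFP+ cells with limma-voom and 28 for PSCs with the share of Lars2, Gm23935 and Gm15564 as a term. Leaving out 1 library gave 36 to 49, 9 to 13 and 9 to 15. The members by the rule numbered 66 at 10 CPM, 285 at 2 CPM and 129 to 136 with 1 library left out, against 133. Separate libraries were found for 5 lincRNAs of S100β-GFP+ cells with TMM library sizes, against 3, and for 5 of S100β-GFP+ and 8 of NG2-dsRed+ cells without S100β-GFP+ libraries 14, 17 and 22, with or without PSC library 18. The correlation with neighbours between S100β-GFP+ and NG2-dsRed+ cells was -0.017 over pairs more than 5000 bases apart, against 0.38, and with neighbours by nearest start 0.33, against 0.50.

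For the 31 lincRNAs at 5 CPM in all cell types, PSCs against S100β-GFP+ cells gave 7 higher and 8 lower, and 2 and 2 in the 2-fold test, 16 and 4 with column sums, 4 higher with the share term and 5 lower without S100β-GFP+ libraries 14, 17 and 22, with or without PSC library 18. PSCs against NG2-dsRed+ cells gave 5 higher and 8 lower, and 1 and 3 in the 2-fold test, 1 higher with the share term, and 5 lower with DESeq2 size factors, 4 without the filter and 3 with column sums. S100β-GFP+ against NG2-dsRed+ cells gave 2 higher and 5 lower, and 0 and 0 in the 2-fold test, 1 higher without the filter, 5 with limma-voom, 1 with column sums, 5 with the share term, 0 without libraries 14, 17 and 22, and 1 higher and 8 lower when PSC library 18 was also left out. Higher than in both others were 4 for PSCs (1 in the 2-fold test, 1 with the share term), 2 for S100β-GFP+ cells (0 in the 2-fold test, 1 without the filter, 1 with column sums, 0 without libraries 14, 17 and 22 and 1 when PSC library 18 was also left out) and 4 for NG2-dsRed+ cells (2 with DESeq2 size factors, 1 without the filter, 0 in the 2-fold test, 1 with column sums). With 1 library left out the ranges were 6 to 10 higher and 6 to 9 lower, 5 to 7 and 3 to 9, and 0 to 4 and 5 to 7 in the same order of comparisons, and 3 to 7, 0 to 3 and 1 to 4 higher than in both others.

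Paraspeckle proteins higher in PSCs than in both others numbered 5, and 0 in the 2-fold test. For snoRNP proteins 1 was higher in PSCs (0 with limma-voom, in the 2-fold test and without PSC library 18 and S100β-GFP+ libraries 14, 17 and 22) and 1 in S100β-GFP+ cells (0 in the 2-fold test, 0 with column sums, 2 with the share term). For microRNA processing 1 was higher in PSCs (0 without the filter and in the 2-fold test, 2 with column sums, 2 with the share term) and 0 in S100β-GFP+ cells (1 with limma-voom). With 1 library left out these stayed at 5, 1, 1, 1 and 0.

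The reversed values were as follows. With the share term Gm10076 between PSCs and S100β-GFP+ cells was -0.63, against 0.50. Without S100β-GFP+ libraries 14, 17 and 22, Gm26870 was 1.00 between PSCs and S100β-GFP+ cells, against -3.15, and -1.37 between S100β-GFP+ and NG2-dsRed+ cells, against 2.74, and AW112010 between PSCs and S100β-GFP+ cells was 0.12, against -0.90. When PSC library 18 was also left out these were 1.12, -1.38 and 0.18. With limma-voom Gm26870 between S100β-GFP+ and NG2-dsRed+ cells was -0.20.

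The lincRNAs that favour 1 cell type often have few counts in the others, so fold changes against those cell types are imprecise and absence cannot be told from a level under 3 counts. Counts of lincRNAs in repeats or overlapping other genes depend on how reads were assigned, which the table does not show.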
